A study of Mus musculus with 4 samples.

Results

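Spermatogonial stem cell and progenitor genes were described in whole testis RNA of male C57BL/6 mice, 2 libraries from mice lacking Tas1r3 (KO) and 2 libraries from wild-type mice (WT). The set held 10 genes taken by symbol, Gfra1, Id4, Zbtb16, Sall4, Pou5f1, Dmrt1, Uchl1, Kit, Sohlh1 and Dazl, and all 10 were present among the 17934 genes of the deposited tables. Both genotypes had eaten a western diet for 18 weeks, so no library came from mice on another diet. The TAS1R3 protein is part of both the sweet and the umami taste receptor, and the comparison asks which testicular transcripts differ without it. The labels name the KO genotype without describing the allele, and it is not stated whether replicate libraries are different animals.

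Spermatogonia are the dividing germ cells at the base of the seminiferous tubule. A small stem cell pool renews itself under the growth factor GDNF from Sertoli cells, which signals through the receptors GFRA1 and RET. ID4, ZBTB16, SALL4 and POU5F1 belong to the transcriptional regulators of undifferentiated spermatogonia, and retinoic acid moves these cells towards the KIT-positive, differentiating state and then meiosis. DAZL, an RNA-binding protein, is needed from early germ cell development onwards. Spermatogonia are a small share of the cells of an adult testis, so their transcripts are diluted by those of spermatocytes and spermatids. In whole tissue, fewer cells of a type and less RNA per cell cannot be told apart.

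Values are CPM, the reads of a transcript per 1000000 assigned reads, summed over the transcripts of a gene. Estimated depths were 748637 and 597936 assigned reads in KO replicates 1 and 2, against 1719356 and 1807695 in WT replicates 1 and 2. The KO libraries were thus the shallower pair. Of the 17934 genes, 1169 and 1322 had no reads in KO replicates 1 and 2, against 141 and 217 in WT replicates 1 and 2. The protamine gene Prm1, a marker of late spermatids, had 3084 and 5056 CPM in KO and 4432 and 4206 CPM in WT. Tas1r3 itself had 1.34 and 0 CPM in KO and 13.8 and 20.5 CPM in WT. KO was compared with WT by limma on log2(CPM + 1) over the 17654 genes whose mean over all libraries reached 1 CPM. A call needed a Benjamini-Hochberg (BH) adjusted p below 0.05. The targeted gene Tas1r3 was itself not called (log2 fold change -3.54; limma, unadjusted p = 0.000248, BH-adjusted p = 0.627). A gene that was not called is therefore not shown to be unchanged. Of all genes tested 0.00566% were called, which is 1 gene, and it was no spermatogonial gene. That count was 954 without KO replicate 1, 413 without KO replicate 2 and 0 without WT replicate 1 or WT replicate 2.

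No spermatogonial gene passed the test, and the largest difference was in Sall4, which had no reads in either KO library. Of the 10 genes, 0 were called (limma, BH-adjusted p from 0.95 to 1.00), and 1, Sall4, had an unadjusted p under 0.05, against 4.33% of all genes. All 10 reached the mean of 1 CPM. Sall4 reached it through the WT libraries alone. The mean log2 value was higher in KO for 6 of the 10 genes and lower for 4, beside 44.9% higher and 55.1% lower over all genes. The median log2 fold change of the 10 genes was 0.08, beside -0.04 over all genes tested. The KO libraries lay above both WT libraries for Dmrt1 and Uchl1 and below both for Sall4 and Gfra1. Over all genes 15.1% lay above and 19.2% below. An exact permutation test of 2 against 2 libraries cannot give a two-sided p below 0.33.

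**Figure D1:**
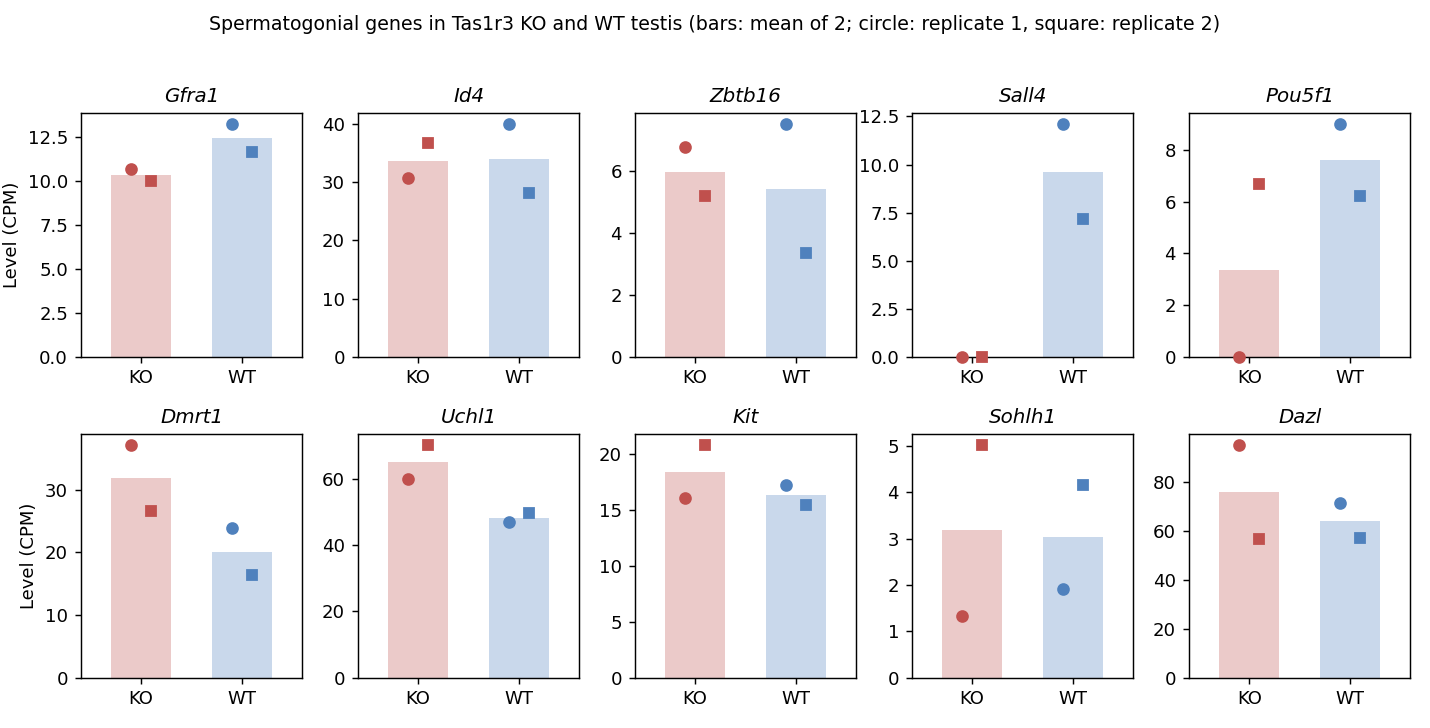
Level of each of the 10 genes in CPM (vertical axes, each from 0) in KO and WT testis, with circles for replicate 1, squares for replicate 2 and bars for the mean of 2 libraries. Sall4 is at 0 in both KO libraries against 12.1 and 7.15 CPM in WT, and Pou5f1 is at 0 in KO replicate 1 only.

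Sequences are shown for the coding stretches by which a pair of deposited transcripts differs in Kit, Gfra1 and Dazl, because the division of reads within each pair is described below. Gfra1 has a further deposited transcript, NR_104342 of 4750 bases, whose difference is not shown. Capitals mark the alternative stretch and lower-case letters mark 24 bases of coding sequence on each side, from GENCODE M21 transcripts on GRCm38. The Kit stretch is the end of exon 9 of Kit-201 (chr5:75639147-75639158, plus strand) and is absent from Kit-204. The Gfra1 stretch is exon 5 of Gfra1-201 (chr19:58392573-58392587, minus strand), absent from Gfra1-203. The Dazl stretch is exon 8 of Dazl-201 (chr17:50284996-50285046, minus strand), absent from the partial transcript Dazl-202.
Kit: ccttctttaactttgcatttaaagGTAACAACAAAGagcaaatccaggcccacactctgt
Gfra1: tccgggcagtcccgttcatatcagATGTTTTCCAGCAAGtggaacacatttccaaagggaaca
Dazl: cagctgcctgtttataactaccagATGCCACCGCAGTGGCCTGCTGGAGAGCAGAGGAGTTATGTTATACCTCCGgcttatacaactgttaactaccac

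All 3 stretches are coding, and their lengths of 12, 15 and 51 bases in Kit, Gfra1 and Dazl are multiples of 3. These lengths do not show that a stretch begins or ends at the edge of a codon. The deposited transcript lengths differ by 15 bases for Gfra1 (NM_010279 against NM_001285457) and by 51 for Dazl (NM_010021 against NM_001277863). For Kit the deposited lengths differ by 16 bases (NM_001122733 against NM_021099), of which 4 are a difference in the annotated start.

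Among the receptors and regulators of the stem cell pool, Gfra1 was measured with few reads. Gfra1, the GDNF co-receptor (chromosome 19, 58224013 to 58443830 on mm39, minus strand), had 10.7 and 10.03 CPM in KO replicates 1 and 2, against 13.2 and 11.7 CPM in WT. Both KO libraries were below both WT libraries, with 14 estimated reads in KO and 44 in WT. The log2 fold change was -0.24 (SE 0.36, 95% interval -1.05 to 0.56; limma, BH-adjusted p = 0.959). Id4, an inhibitor of basic helix-loop-helix factors that marks stem cells in mice (chromosome 13, 48414592 to 48419504), had 30.6 and 36.8 CPM in KO, against 39.9 and 28.2 CPM in WT. The KO values fell within the span of the WT values, and the log2 fold change was 0.00 (SE 0.26, 95% interval -0.59 to 0.59; limma, BH-adjusted p = 1.00). A330033J07Rik overlaps Id4 on the opposite strand and had 1.42 and 0 CPM in KO and 0.844 and 3.19 CPM in WT. Zbtb16, which encodes the zinc finger repressor PLZF (chromosome 9, 48563097 to 48747525), had 6.76 and 5.18 CPM in KO, against 7.50 and 3.36 CPM in WT. These rest on 8 estimated reads in KO and 19 in WT, and the genotypes overlapped (log2 fold change 0.19, SE 0.53; limma, BH-adjusted p = 0.979).

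Sall4 had no reads in either KO library. It encodes a zinc finger factor that partners with PLZF in undifferentiated spermatogonia (chromosome 2, 168590252 to 168609121, minus strand, with 1 deposited transcript of 5073 bases). It had 0 and 0 CPM in KO replicates 1 and 2, against 12.1 and 7.15 CPM in WT replicates 1 and 2. In estimated reads this is 0 in KO and 20.8 and 12.9 in the WT libraries. At the WT level, 13.0 reads would fall in the 2 KO libraries together. Set against a floor of 3 reads over both KO libraries, the WT estimate was 4.33-fold higher, with no allowance for counting error in WT. The exact 95% interval of the read ratio gives a lower limit of 3.33-fold. The log2 fold change was -3.37 (SE 0.65, 95% interval -4.84 to -1.90; limma, unadjusted p = 0.000581, BH-adjusted p = 0.95). This fitted value depends on the pseudocount and was -6.55 with 0.1 CPM and -1.53 with 5 CPM. Sall4 was called without KO replicate 1 or without KO replicate 2 (limma, BH-adjusted p = 0.000201 and 0.00031), in fits that take the spread from the WT pair alone, and not when either WT library was left out (1.00 each time). By unadjusted p in the main fit Sall4 ranked 9 of 17654 genes. Both KO values were 0, so the KO pair showed no spread in that fit, and Sall4 passed the filter through WT alone. Its p, interval and rank are therefore descriptive only. Of the 3641 genes with 20 to 50 estimated WT reads, a range chosen after the values of Sall4 were seen, 12 (0.33%) had 0 reads in both KO libraries.

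Pou5f1 had few reads in KO replicate 2 and none in KO replicate 1. This gene encodes the pluripotency factor OCT4 (chromosome 17, 35816929 to 35821674, plus strand) and had 0 and 6.69 CPM in KO, against 8.99 and 6.20 CPM in WT. KO replicate 2 lay between the WT libraries, and KO replicate 1 had no read, so the genotypes overlapped. There were 4 estimated reads in KO and 27 in WT, a KO level of 38.8% of WT with an exact 95% interval of 9.87% to 111%. The log2 fold change was -1.61 (SE 0.88, 95% interval -3.61 to 0.39; limma, BH-adjusted p = 0.95). The value rests on KO replicate 1: without it the log2 fold change was -0.14, and without KO replicate 2 it was -3.08 (limma, BH-adjusted p = 0.898 and 0.00175).

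Dmrt1 and Uchl1 had higher values in both KO libraries and did not pass. Dmrt1, a DM domain factor that keeps spermatogonia from entering meiosis and is also expressed in Sertoli cells (chromosome 19, 25483070 to 25581692), had 37.1 and 26.6 CPM in KO, against 23.8 and 16.3 CPM in WT. The lower KO library exceeded the higher WT library. The log2 fold change was 0.64 (SE 0.30, 95% interval -0.04 to 1.33; limma, unadjusted p = 0.0614, BH-adjusted p = 0.95), from 44 estimated reads in KO and 71 in WT. Uchl1, a ubiquitin hydrolase abundant in spermatogonia and neurons (chromosome 5, 66833464 to 66844577), had 60.1 and 70.2 CPM in KO, against 46.9 and 49.8 CPM in WT. Its log2 fold change was 0.42 (SE 0.20, 95% interval -0.03 to 0.87; limma, unadjusted p = 0.0617, BH-adjusted p = 0.95). Counting error alone gave exact 95% intervals of the KO to WT read ratio of 1.09 to 2.40 for Dmrt1 and 1.02 to 1.73 for Uchl1. These intervals do not cover the spread between libraries and are no test of genotype.

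Markers of the other cells that express these genes are given beside them. Summed over 20 Sertoli cell genes, the level was 2244 and 1957 CPM in KO and 2157 and 2183 CPM in WT, with none of the 20 at 0. The 7 measured nerve genes summed to 54.4 and 55.7 CPM in KO, against 48.4 and 52.2 CPM in WT, with 5 of 7 higher in mean log2 value in KO (median log2 fold change 0.56, but -0.15 with a minimum mean of 5 CPM and -0.01 without KO replicate 2) and 1 of 7 at 0 in KO replicate 1. Their part in the Uchl1 and Dmrt1 values was not tested.

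The remaining genes of the set, Kit, Sohlh1 and Dazl, had overlapping genotypes. Kit, the receptor tyrosine kinase of differentiating spermatogonia and also of Leydig cells (chromosome 5, 75735647 to 75817381), had 16.0 and 20.8 CPM in KO, against 17.2 and 15.4 CPM in WT. Summed over 12 Leydig cell genes, none of them at 0, the level was 2022 and 1989 CPM in KO and 2230 and 2223 CPM in WT, and 4 of the 12 were higher and 8 lower in KO. Insl3, the most abundant of them, had 1234 and 1278 CPM in KO, against 1517 and 1464 CPM in WT. Cyb5a had 12.0 and 13.4 CPM in KO, against 18.0 and 24.9 CPM in WT. Cyp17a1 had 135 and 127 CPM in KO, against 46.5 and 129 CPM in WT. Star had 38.7 and 75.4 CPM in KO, against 23.6 and 49.8 CPM in WT. The part of Leydig cells in the Kit values was not tested. The log2 fold change of Kit was 0.16 (SE 0.31, 95% interval -0.54 to 0.85; limma, BH-adjusted p = 0.969). Mouse spermatids also make a truncated KIT from an internal promoter, and the deposited tables hold 2 full-length Kit transcripts and none for that form. Sohlh1, a helix-loop-helix factor required for differentiation (chromosome 2, 25733009 to 25737260), had 1.34 and 5.02 CPM in KO, against 1.92 and 4.15 CPM in WT. It rests on 1 and 3 estimated reads in the KO libraries and 11 in both WT libraries together, and its 95% interval ran from -1.63 to 1.53 on the log2 scale. Dazl, the RNA-binding regulator (chromosome 17, 50586421 to 50600648), had 95.1 and 56.9 CPM in KO, against 71.5 and 57.0 CPM in WT. KO replicate 1 was the highest of the 4 libraries, KO replicate 2 lay just below WT replicate 2, and the log2 fold change was 0.20 (SE 0.26, 95% interval -0.39 to 0.79; limma, BH-adjusted p = 0.953).

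**Figure D2:**
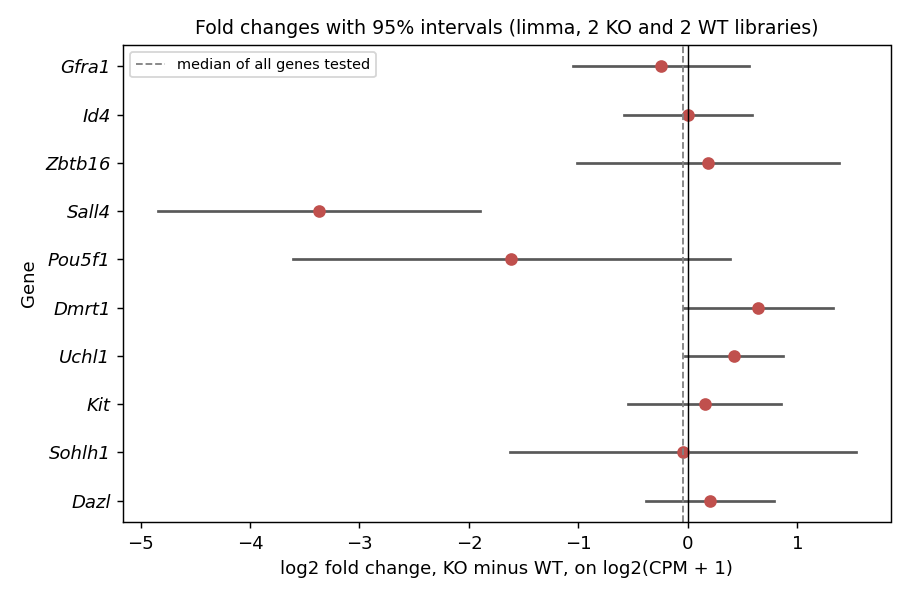
Log2 fold change of each gene, KO minus WT, on log2(CPM + 1) (horizontal axis), with points for the limma estimate from 2 KO and 2 WT libraries, lines for the 95% interval and a dashed line at the median of all genes tested, -0.04. The interval of Sall4, whose KO values were both 0, lies wholly below 0, from -4.84 to -1.90. Those of the other 9 genes include 0.

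The transcripts of Dazl were divided differently in each library. NM_001277863, shorter by the length of exon 8, took 1.29% and 70.1% of Dazl CPM in KO replicates 1 and 2, against 21.2% and 12.9% in WT replicates 1 and 2. The KO libraries thus held both the lowest and the highest share. NM_001277863 had 1.22 and 39.8 CPM in KO, against 15.2 and 7.34 CPM in WT, and NM_010021 had 93.8 and 17.0 CPM in KO, against 56.3 and 49.6 CPM in WT. Neither transcript was called over 28243 transcripts tested, of which 0% were called (limma, BH-adjusted p = 0.989 and 0.964, and 1769 transcripts, 6.26%, had an unadjusted p under 0.05). With reads spread evenly along the transcript, 1.22 and 0.585 reads would start in the 51-base exon in the KO libraries and 2.12 and 1.77 in the WT libraries. Reads over the junctions add to these, and the tables do not give their number.

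Kit, Gfra1 and Zbtb16 were divided by fixed shares in some or all libraries. The ratio of NM_001122733 to NM_021099 of Kit was 0.859 in all 4 libraries, and that of NM_001285457 to NM_010279 of Gfra1 was 1.17 in all 4. The other Gfra1 transcript, NR_104342, took 15.8% of Gfra1 CPM in every library. At most 0.0685 Kit reads and 0.0732 Gfra1 reads per library would start in the stretches shown above, and for Gfra1 this concerns only NM_010279 against NM_001285457. For Zbtb16, NM_001033324 took 52.9% in KO replicate 2 and in WT replicate 2, against 0.405% in KO replicate 1 and 0.0001% in WT replicate 1. Kit and Gfra1 therefore gave no comparison of transcripts beyond that of the gene.

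**Figure D3:**
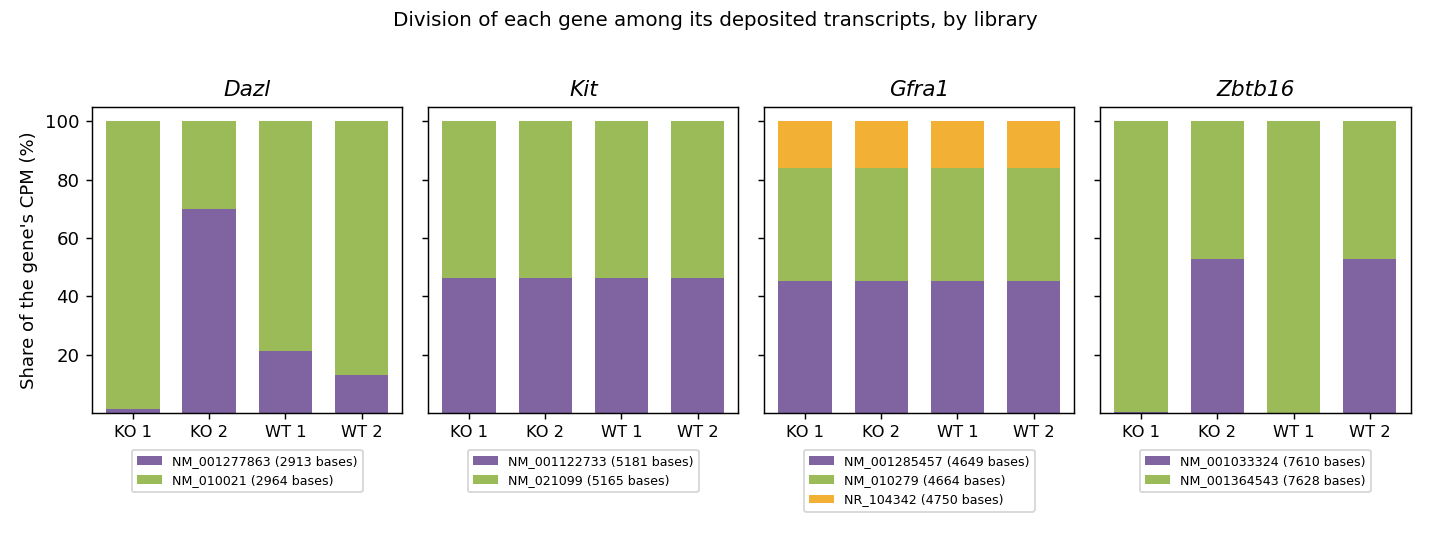
Share of each gene's CPM given to each deposited transcript (vertical axis, percent) in KO replicates 1 and 2 and WT replicates 1 and 2, with 1 colour per transcript. Dazl runs from 1.29% to 70.1% for NM_001277863 within KO, while the Kit and Gfra1 bars are alike in all 4 libraries.

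Levels between genes were compared per length, as CPM divided by transcript length in kilobases. Uchl1 was highest in every library, with 52.4 and 61.2 CPM per kilobase in KO and 40.9 and 43.4 in WT. Dazl came next in every library, with 32.1 and 19.4 CPM per kilobase in KO and 24.2 and 19.3 in WT, apart from Uchl1 in every library. Dmrt1 and then Id4 followed in every library. Their ranges over the 4 libraries overlapped, at 7.26 to 16.5 CPM per kilobase for Dmrt1 and 7.11 to 10.1 for Id4. Kit ran from 2.98 to 4.02 CPM per kilobase and Gfra1 from 2.15 to 2.84, which did not overlap. Pou5f1, Sohlh1, Sall4 and Zbtb16 each overlapped at least 1 neighbour in the order. The median of all genes tested was 5.11 to 5.31 CPM per kilobase by library. Uchl1 stood at the 89.0 and 90.3 percentile of all genes in KO and at 86.1 and 86.8 in WT, and Zbtb16 at 17.2 and 13.0 in KO and at 14.0 and 5.78 in WT.

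Few reads carried the set in KO. The 10 genes together had 193 and 142 estimated reads in KO replicates 1 and 2, against 418 and 360 in WT. Below 10 reads stood 5 of the 10 genes in each KO library, against 1 and 2 in the WT libraries. The WT libraries were on average 2.62-fold deeper, and the share of all genes below 10 reads was not counted. In CPM the sums were 258 and 238 in KO and 243 and 199 in WT. The ratio of Kit to Gfra1 per length was 1.35 and 1.87 in KO, against 1.17 and 1.19 in WT. In KO it rested on 24 estimated Kit reads and 14 Gfra1 reads, and it was not tested. The ratio of Uchl1 to Id4 was also higher in both KO libraries, at 6.78 and 6.60, against 4.06 and 6.10 in WT. Those of Dazl to Uchl1 and of Dmrt1 to Kit overlapped between genotypes.

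Other spermatogonial genes, from lists chosen with earlier results of these data known, also held no called gene. Of 27 further genes of undifferentiated spermatogonia measured, 0 were called, the mean log2 value was above WT for 14 and below it for 13, and their median log2 fold change was 0.01. Thy1, a surface antigen used to enrich stem cells, had 0 and 0 CPM in KO, against 2.70 and 2.83 CPM in WT, which is 0 against 10 estimated reads. Its log2 fold change was -1.91 (95% interval -3.64 to -0.18; limma, unadjusted p = 0.0338, BH-adjusted p = 0.95), and the exact 95% interval of its read ratio, for counting error alone, ran from 0 to 1.17. Like Sall4, it reached the mean of 1 CPM through the WT libraries alone, so its limma p and interval are descriptive only. Ret, the GDNF signalling receptor, had 0 and 3.60 CPM in KO, against 5.95 and 3.12 CPM in WT. Etv5, a factor induced by GDNF, had 18.7 and 18.6 CPM in KO, against 12.7 and 13.8 CPM in WT. Shisa6, a membrane protein gene of undifferentiated spermatogonia, had 1.58 and 1.73 CPM in KO, against 4.80 and 3.12 CPM in WT.

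Of 20 genes of differentiating spermatogonia, 0 were called, and 7 were higher and 13 lower in KO. Their median log2 fold change was -0.05, but -0.27 without KO replicate 1 and 0.21 without KO replicate 2. Stra8, the retinoic acid target of meiotic entry, had 16.0 and 14.6 CPM in KO, against 7.56 and 12.6 CPM in WT. Rhox13, a homeobox gene of differentiating germ cells, had 8.24 and 8.12 CPM in KO, against 4.51 and 4.01 CPM in WT. Prss50, a serine protease gene, had 22.7 and 18.4 CPM in KO, against 30.2 and 26.6 CPM in WT, and Ythdc2, an RNA helicase needed for meiosis, had 24.04 and 17.3 CPM in KO, against 15.2 and 14.4 CPM in WT. Sohlh2, the partner of Sohlh1 and named through the ID and E protein list, had 9.35 and 6.83 CPM in KO, against 12.0 and 11.2 CPM in WT, so both KO libraries were lower. Of 20 genes of the following stage, the spermatocytes, 0 were called, and 14 were higher and 6 lower in KO (median log2 fold change 0.17).

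Signals and pathway partners showed no called gene either. The GDNF receptor pathway had 13 of 26 measured genes higher and 13 lower, and the KIT pathway 10 of 20 higher and 10 lower (median log2 fold change -0.01 in each). Of 25 niche signal and receptor genes tested 12 were higher and 13 lower. Gdnf, the stem cell ligand, had 1.88 and 0 CPM in KO, against 3.44 and 1.80 CPM in WT. Kitl, the ligand of KIT, had 13.4 and 11.1 CPM in KO, against 12.4 and 9.65 CPM in WT. Gdnf, Kitl, Sall2, Sall3 and Ddx4 were added for their roles and not by the size of p.

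Within the partner list of SALL, POU and ZBTB16 proteins, 17 genes were tested and 0 called, with 5 higher and 12 lower in KO. Their median log2 fold change was -0.15, but -0.30 without KO replicate 1 and 0.08 without KO replicate 2. Sall1, a paralogue of Sall4, had 5.38 and 3.06 CPM in KO and no reads in WT, on 6 estimated reads in all. It reached the mean of 1 CPM through the KO libraries alone, so its limma p is descriptive only. Set against a floor of 3 reads over both WT libraries, the KO estimate of Sall1 was 5.24-fold higher, with no allowance for counting error in KO. The exact 95% interval of its read ratio gave a lower limit of 3.08-fold (limma, unadjusted p = 0.0112, BH-adjusted p = 0.95). Sall2 had 8.34 and 1.76 CPM in KO, against 3.50 and 4.99 CPM in WT, and Sall3 had 18.3 and 15.5 CPM in KO, against 23.3 and 12.8 CPM in WT. Sall1, on 6 estimated reads, and Sall4 each had reads in a single genotype. The share of all genes with so few reads, in KO alone, was not counted, and a link between Sall1 and Sall4 was not tested. Sall2 and Sall3 had reads in all 4 libraries with overlapping genotypes. Mtor, which encodes a growth kinase whose activity PLZF restrains in mouse spermatogonia, had 235 and 191 CPM in KO, against 271 and 283 CPM in WT (limma, unadjusted p = 0.0315, BH-adjusted p = 0.95). These are RNA values of whole testis, and kinase activity was not measured.

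Paralogues of Dmrt1 and partners of Dazl were likewise uncalled. Of 8 other DMRT genes 2 were higher and 6 lower (median log2 fold change -0.10), and Dmrta2 had 17.2 and 14.5 CPM in KO, against 8.71 and 9.13 CPM in WT. Of 16 RNA-binding protein genes of germ cells 9 were higher and 7 lower (median log2 fold change 0.04). Ddx4, the germ cell helicase VASA, had 358 and 288 CPM in KO, against 312 and 276 CPM in WT. Among 8 helix-loop-helix genes of the ID and E protein group 5 were higher and 3 lower, and Id2, a relative of Id4, had 9.35 and 8.36 CPM in KO, against 6.40 and 3.50 CPM in WT. Of 8 other ubiquitin hydrolase and ubiquitin genes 4 were higher and 4 lower.

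**Figure D4:**
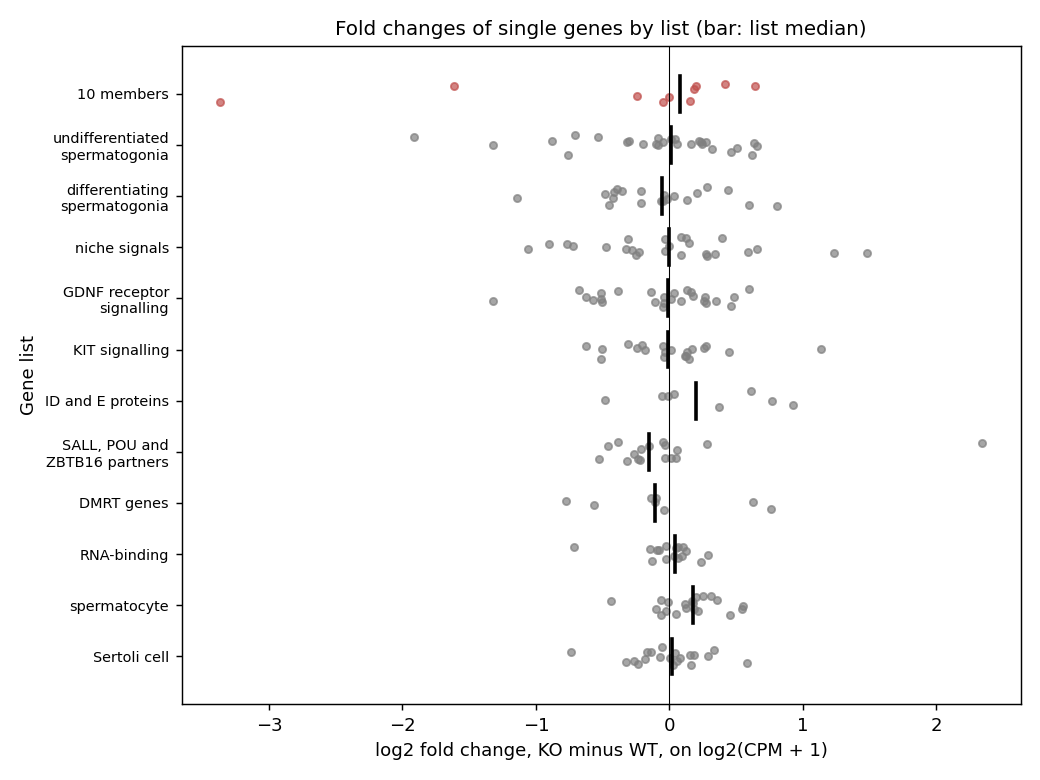
Log2 fold change of single genes, KO minus WT, on log2(CPM + 1) (horizontal axis), by gene list, with 1 point per gene and a bar at the list median. The medians of the lists drawn lie between -0.15 and 0.20, Sall4 is the lowest point among the 10 genes at -3.37 and Sall1 the highest of the partner list at 2.35.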

How the data were processed

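RNAqueous kits served for RNA and an Ion Total RNA-Seq Kit for the libraries, per the labels' protocols. STAR, Partek and mm39 are named, without versions or roles, in the submitters' processing notes. The authors deposited 1 table per library for 29342 transcripts. Each deposited column sums to 1000000, from which the unit was inferred to be CPM. The commonest low values gave the CPM of 1 read and so the estimated depth and reads. Within 0.01 reads, 21.1% to 49.1% of genes per library had whole reads, so no count model was fitted. Under 0.005 reads was taken as 0.

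Transcripts were summed per symbol and tested, two-sided, on log2(CPM + 1) with limma 3.58.1 (R 4.3.3) and a mean-variance trend, over all genes and over all transcripts. The procedure was tested on simulated data. Read ratios have exact conditional 95% intervals over both libraries of a genotype. Intervals and floors cover counting error only, since reads carry no molecular identifiers. P-values set the difference between KO and WT against the spread between these libraries, moderated over all genes. That spread may be technical. Named list genes were taken from the up to 4 with the smallest unadjusted p in a list, unless stated, and not every such gene is named. Deposited starts count from 1, and 1 was subtracted from deposited stops. Replicates were compared by a chi-square of estimated reads per gene (mean 2.02 in KO, 1.61 in WT) and kept as separate samples. Members and lists were chosen with earlier results of these data known. Alternatives tried were a pseudocount of 0.1 or 5 CPM, a filter at a mean of 5 CPM or none, quantile normalization, no trend, a replicate block and each library left out.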

Additional observations from a re-analysis of the deposited data

How the results depend on the processing

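The count of called genes was 1. It was 0 with a pseudocount of 0.1 CPM and without the mean-variance trend, 24 with the replicate number as a block, and 0 to 954 with each library left out (954 without KO replicate 1, 413 without KO replicate 2, 0 without WT replicate 1 or WT replicate 2). Fits with 1 KO library take the spread from the WT pair and assume that the lone library varies alike. Among the 10 spermatogonial genes 0 to 2 were called with a library left out: Sall4 without KO replicate 1 or KO replicate 2 (limma, BH-adjusted p = 0.000201 and 0.00031) and Pou5f1 without KO replicate 2 (0.00175). With the replicate block 1 of the 10 was called, Sall4 (limma, BH-adjusted p = 0.0346). The labels do not say that equal numbers pair libraries, and the deviations of equal numbers correlated at -0.00585 across genes. Under the other settings tried Sall4 was not called (BH-adjusted p from 0.247 to 1), and a mean of at least 5 CPM removed it. Its log2 fold change was -6.55 with a pseudocount of 0.1 CPM and -1.53 with 5 CPM. The count of called transcripts was 0 in every setting tried.

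Of 108 values of the 10 genes 11 changed sign, all for genes with a log2 fold change of at most 0.20 in size. Id4 had -0.00053 with a pseudocount of 5 CPM, -0.017 after quantile normalization and -0.24 to 0.25 with a library left out. Sohlh1 had 0.0019 and 0.083 under the same settings and -0.73 to 0.63 with a library left out. With a library left out Dazl had -0.16 to 0.57, Kit -0.022 to 0.33 and Zbtb16 -0.30 to 0.67. Of 209 list medians 22 moved by more than the spread between replicates.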
